A study of Mus musculus with 18 samples.

Results

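Mature metaphase II (MII) oocytes grown in culture were compared with the oocytes of primary follicles from cultured ovaries, by RNA sequencing of 3 samples each, so that 6 of the 18 samples of the series entered the comparison. All 6 came from C57Bl/6j x CBA/J F1 hybrid mice whose ovaries were taken at 7 days of age and kept in culture for 7 days in α-MEM with 10% fetal bovine serum, insulin, transferrin and selenium, and recombinant follicle-stimulating hormone (FSH). For the primary group, oocytes surrounded by cuboidal granulosa cells in a single row were cut by laser-capture microdissection (LCM) from fixed, paraffin-embedded sections of these ovaries, and the captured oocytes were pooled. For the MII group, secondary follicles of the cultured ovaries were encapsulated in alginate and grown for 12 more days with 5% serum and FSH, and ovulation was then induced with human chorionic gonadotropin. Each MII sample held 10 oocytes. No source used here says that the 3 samples of a group came from separate animals or cultures, so p-values measure only the spread between these samples.

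The 2 groups were not prepared alike. RNA of the primary follicle oocytes was fragmented RNA from fixed tissue, amplified as a whole transcriptome and enriched with capture probes for coding exons, whereas RNA of the MII oocytes came from unfixed cells and was primed on poly(A) tails (Smart-seq II). Stage and preparation therefore cannot be told apart in any value below. For that reason the position of each gene within its own library is given beside the fold change. This percentile rank is the percentage of the 17963 tested genes with annotation that had fewer reads per kilobase of exon in the same library.

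An oocyte in a primary follicle has just begun to grow and transcribes actively, building up the ribosomes, mitochondria and messenger RNAs (mRNAs) of the egg. A fully grown oocyte is silent: it completes meiosis up to metaphase II on stored mRNAs, some of which gain poly(A) tail and are translated while many others are deadenylated and lost. Cytoplasmic polyadenylation elements (CPEs) near the 3′ end of a stored mRNA are known to take part in this control.

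To show this element, the 3′ ends of 5 transcripts whose levels are described below were taken from GENCODE vM21 transcripts on GRCm38 (mm10). Each line holds 30 bases of the 3′ UTR, with the CPE motif TTTTAT nearest the 3′ end in capitals. The windows lie on chr6:40466784-40466813 (Wee2, plus strand), chr9:51119797-51119826 (Btg4, plus strand), chr4:118432918-118432947 (Cdc20, minus strand), chr12:105216797-105216826 (Tcl1, minus strand) and chr11:53437854-53437883 (Gdf9, plus strand).
Wee2: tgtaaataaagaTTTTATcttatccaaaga
Btg4: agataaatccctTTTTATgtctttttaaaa
Cdc20: ttcttgtttttaTTTTATtttttctaataa
Tcl1: gaatgtgtgggaTTTTATgtggttctattt
Gdf9: agagtgctgtggTTTTATgtgacggaagaa
The motif ended 12, 61, 29, 59 and 33 bases before the annotated 3′ end. TTTTAT or TTTTAAT, searched on the mRNA strand only, occurred in the last 100 bases of 19.9% of the 13317 tested protein-coding genes with a 3′ UTR of that length, in 23.7% of those called higher in MII oocytes and in 18% of those called lower. Either motif can share letters with a poly(A) signal (AATAAA or ATTAAA), which stood in the last 40 bases of 77.2% of all, 79.1% of the higher and 76% of the lower genes. Among 28 genes looked up by name, 10 held either motif, the lower gene Eef1a1 among them, and 18 held neither, among them Mos, Ccnb1, Fbxo43, Pttg1 and Dppa3. The 5 above were shown because they hold it. A match of letters describes a window and not a functional site.

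The primary libraries held 22572216 to 23930436 counted reads and 10565 to 13755 genes with a read, and the MII libraries 8898672 to 9978830 reads and 15442 to 18239 genes. Ranks of genes correlated more closely among MII libraries (Spearman 0.903 to 0.938) than among primary libraries (0.709 to 0.82), and least between the groups (0.331 to 0.419). These coefficients are across genes, which are not independent replicates. MII replicate 1 stood apart in its mitochondrially encoded mRNAs, which took 7.69% of its reads against 1.58% and 1.87% in the other MII libraries. Primary replicate 2 had the fewest genes with a read (10565) and correlated less with the other primary libraries (0.709 and 0.714) than these did with each other (0.82). It also stood apart in Krt19, a keratin of the ovarian surface epithelium. Krt19 had 0, 41859 and 1 reads in primary replicates 1 to 3 and none in any MII library.

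Both groups carried oocyte transcripts. Gdf9, a growth factor made by the oocyte, ranked at percentile 89.4 to 94.0 in the primary libraries and above 99.8 in the MII libraries. Other oocyte genes had few reads in the primary libraries, such as Bmp15 (83, 34 and 97) and Nobox (52, 31 and 63). Markers of somatic cells were present in the primary libraries. Col1a2, a collagen of stroma, had 25743, 40022 and 28122 reads there, and the granulosa cell transcription factor genes Wt1 and Foxl2 had 9359 to 22896 and 3568 to 8056 reads. All 3 genes were at 0 in every MII library. The summed granulosa list took 0.206% to 0.365% of primary and 0.0104% to 0.0187% of MII reads, and 9 of its 16 genes were called lower and 2 higher. The summed stroma list took 0.263% to 0.532% against 0.000512% to 0.00109%, with 6 of 11 genes lower and none higher. The zona pellucida and oocyte-secreted growth factor lists took less of the primary reads, 0.00746% to 0.0153% and 0.0165% to 0.0233%. The maternal mRNA storage list took 0.369% to 0.539% of them. Among the theca markers 3 of 7 tested were lower, led by Ptch1 (21570, 17624 and 17668 reads against 0), and in the surface epithelium list 1 of 6. For comparison, 24.4% of all genes tested were called higher and 14.0% lower. The shares called lower were 56.2% of granulosa, 54.5% of stroma, 42.9% of theca and 16.7% of surface epithelium markers, the last near that of all genes. The shares called higher were 12.5% of granulosa and 50% of endothelial and of immune markers. Of the cumulus expansion list, 7 of 9 genes were at 0 in all MII libraries and 6 of 9 in all primary libraries. Of the 4 tested, 1, Vcan, was lower (25%). Cyp19a1 (0, 0 and 7 against 334, 655 and 611 reads) and Fshr (0 against 11, 47 and 20) were the 2 granulosa markers called higher, 3 of 6 endothelial markers were called higher (Pecam1, Tek and Flt1), as were 2 of 4 immune markers (Csf1r and Cd68), and no blood marker was called. These marker counts rested on few libraries: leaving out an MII library left 4 to 6 granulosa, 3 to 5 stromal and 2 or 3 theca genes lower, the higher granulosa calls were 1, 0 and 0 without MII replicate 1, 2 or 3, without MII replicate 2 no endothelial or immune marker was called, and 1 immune marker was called without primary replicate 1, MII replicate 1 or MII replicate 3. Vcan and the surface epithelium gene lost their calls when any single MII library was left out. Without primary replicate 2 the surface epithelium list had 1 gene higher and none lower and the blood list 1 lower, and without primary replicate 3 the theca list had 1 higher and 2 lower. In bulk samples, fewer cells of a type and less RNA per cell cannot be told apart, and the part of somatic RNA in the differences below was not tested.

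Of 17991 genes tested, 4390 (24.4%) were called higher and 2527 (14.0%) lower in MII oocytes (edgeR quasi-likelihood test adjusted p under 0.05 by Benjamini-Hochberg, and a change of at least 2-fold). In ranks, 5866 genes (32.7% of 17963) stood higher in all 3 MII libraries than in any primary library and 4241 (23.6%) stood lower in all 3. Both criteria were met by 4101 higher and 2489 lower genes. Many calls concerned genes detected on a single side: 2481 of the higher genes had no read in any primary library and 430 of the lower genes had none in any MII library. Protein-coding genes split almost evenly, with 18.2% of 14204 higher and 17% lower, whereas 57.5% of 873 lincRNAs and 66.7% of 887 antisense genes were higher and 1.15% and 0.113% lower. Only the primary libraries had been enriched for coding exons, and the part of that step in this split was not tested. The median log2 fold change of all tested genes was 0.76, from 0.53 to 1.42 with the other scalings tried. In a fit of protein-coding genes alone it was -0.107. Nearly all list members are protein-coding, so list medians below are to be read against both values. The library left out mattered. Without MII replicate 1, 2 or 3 the higher calls numbered 2755, 464 and 2180, and the lower calls 1386, 807 and 1236.

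**Figure D1:**
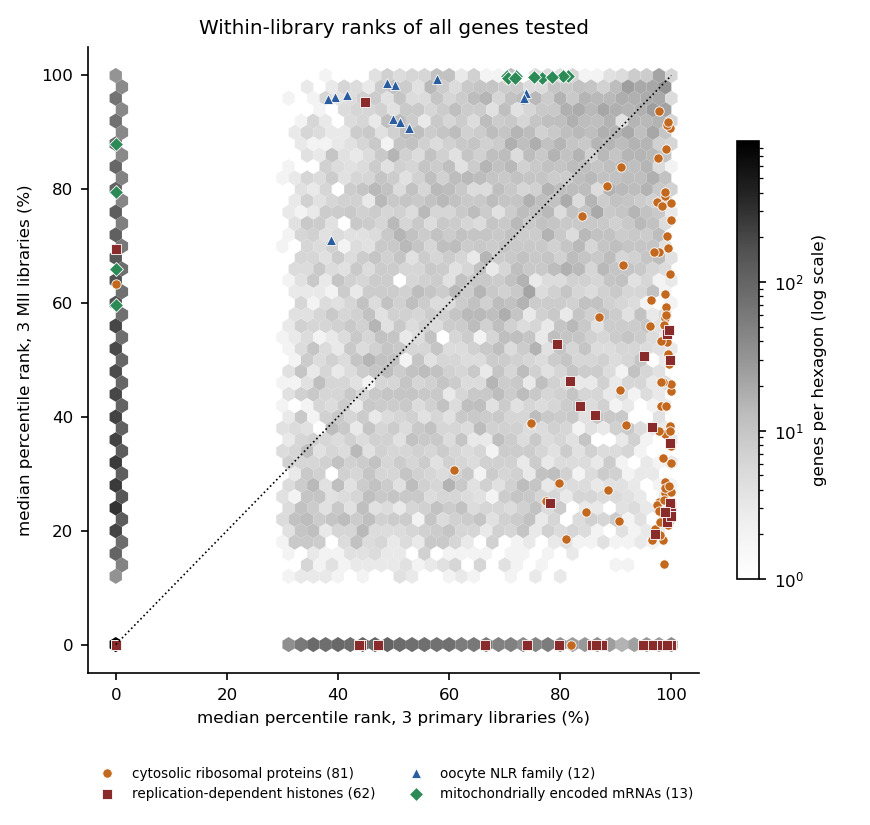
Median percentile rank (%) in the 3 primary libraries (x axis) and in the 3 MII libraries (y axis) of all genes tested with annotation, in hexagons shaded by the number of genes on a log scale, with 4 gene lists drawn as points. Mitochondrially encoded mRNAs and the oocyte NLR family lie above the dotted line of equal rank, and most cytosolic ribosomal protein genes and replication-dependent histone genes lie below it.

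The genes with the smallest p among those called higher were led by Tcl1, a coactivator of the kinase AKT found in oocytes and early embryos. It had 49, 37 and 43 reads in the primary libraries and 110021, 105133 and 104135 in the MII libraries. This was a log2 fold change of 11.90 ± 0.35 (SE; edgeR adjusted p = 7.9e-05), and Tcl1 moved from percentile 57.8 to 69.5 up to 99.96 to 99.98. Zbed3, of the subcortical maternal complex, held 632, 373 and 719 reads against 328392, 225558 and 195298 and was the gene of highest median rank in MII oocytes. Obox2, an oocyte homeobox gene that overlaps Obox1 and belongs to a family of near-identical copies, had 5, 5 and 12 against 21270, 21998 and 23505 reads. The other leading genes were E330034G19Rik, Khdc1b, Oas1d, Rsl1d1, Ccdc69, Accsl and 7420426K07Rik. All 10 ranked at percentile 42.6 to 83.4 in the primary libraries and at 99.2 or above in the MII libraries, with log2 fold changes of 8.86 to 12.16.

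Among the genes called lower, Actb, the cytoskeletal β-actin, had the smallest p. It had 384037, 448863 and 436148 reads in the primary libraries, where it was the gene of highest median rank, and 250, 290 and 236 in the MII libraries (log2 fold change -10.09 ± 0.34, adjusted p = 0.00011). Actb still ranked at percentile 78.7 to 80.3 in MII oocytes. Eef1a1, the elongation factor that brings transfer RNA to the ribosome, had 71344, 65227 and 84240 reads against 307, 290 and 199. Ubb, a ubiquitin precursor, fell 29.2-fold and remained at percentile 97.9 to 98.6. Among the others were the ribosomal protein genes Rpl21, Rpl17 and Rpsa, the mRNA regulators Ddx6 and Cnot1, and Gnas, the stimulatory G protein α subunit. The 10 genes ranked at 97.6 or above in every primary library and from 16.6 to 98.6 in MII oocytes.

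The highest ranks within a library went to different kinds of RNA. In MII oocytes the 10 leading genes included Zbed3, Tcl1, H1foo, Dppa3, Spin1, Bcl2l10, mt-Cytb and mt-Atp8. The MII reads of mt-Atp8 (87291, 11034 and 12028) were nearly those of mt-Atp6 (80749, 11045 and 12174). Whether the genes share reads was not tested. H1foo, the oocyte linker histone, had 87, 16 and 125 reads in primary and 115896, 98639 and 147598 in MII libraries. Bcl2l10, a member of the BCL2 family that is abundant in oocytes, had 26, 4 and 68 against 88257, 55958 and 62111. In the primary libraries Actb, Ubb, Rpl32, Hist1h2bn, Hist1h2af and the mitochondrial ribosomal RNA gene mt-Rnr2 were among the 10, together with Gm27597, Gm23419, Mir3064 and Gm27406, short genes that overlap exons of Rpl19, Actg1, Ddx5 and Pcbp2 on the same strand and share reads with them.

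The genes of oocyte biology chosen by name numbered 52, of which 22 were called higher (42.3%, against 24.4% of all genes), 7 lower (13.5%, against 14.0%) and 23 neither. In ranks, 31 stood higher without overlap (59.6%, against 32.7%), 8 stood lower (15.4%, against 23.6%) and 13 overlapped. The share called lower was that of all genes, and the list counts that follow are likewise to be read against these shares. Nearly all list members are protein-coding, and of all protein-coding genes tested 18.2% were called higher and 17% lower. All were tested and 43 had a read in each of the 6 libraries. At or above percentile 75 in every library of a group were 39 of the 52 in MII and 17 in primary oocytes. The share of all genes passing that cut is not given here, so these counts cannot be read as particular to oocyte genes. Among all genes, more also reached percentile 95 in the 3 MII libraries (691) than in the 3 primary libraries (422). A gene with reads in both groups and no call is described by its values alone.

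**Figure D2:**
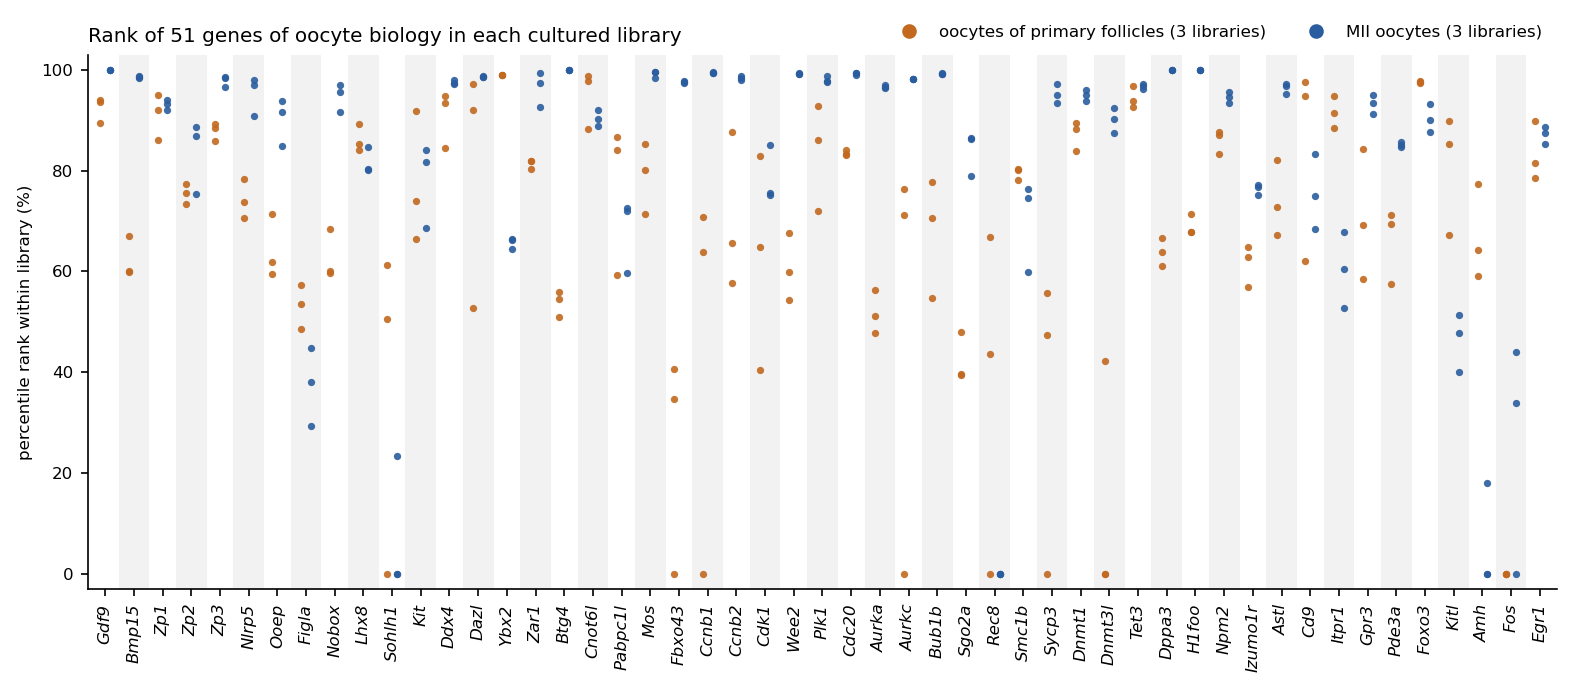
Percentile rank (%, y axis) of 51 genes of oocyte biology (x axis) in each of the 3 primary (orange) and 3 MII (blue) libraries of cultured oocytes, 1 point a library. Btg4, H1foo, Dppa3, Fbxo43 and Aurka separate widely, Ybx2 and Itpr1 stand lower in all MII libraries, and Zp1, Kit, Tet3 and Egr1 overlap.

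Zona pellucida genes, which encode the glycoprotein coat of the egg, gave 1 call among 3. Zp3, the best known sperm-binding component, had 541, 599 and 776 reads in the primary libraries and 1834, 1106 and 2154 in the MII libraries and was called at the edge of the threshold (4.13-fold, adjusted p = 0.043). Its ranks did not overlap (85.9 to 89.3 against 96.6 to 98.6). The Zp3 call was lost when any single library other than primary replicate 2 was left out (adjusted p 0.0581 to 0.176). Zp1 had 826, 2594 and 1609 reads against 619, 979 and 766 (adjusted p = 0.52). Zp2 had 419, 261 and 344 against 175, 668 and 489 (adjusted p = 0.37).

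The oocyte-secreted growth factors, which act on granulosa cells, divided. Gdf9 rose from 2081, 1057 and 2206 reads to 42702, 54095 and 50342 (43.1-fold, log2 5.43 ± 0.35, adjusted p = 0.000695). Bmp15, its X-linked partner, rose from 83, 34 and 97 to 4720, 5386 and 5543 reads (116-fold, adjusted p = 0.00125). Both were called whichever library was left out. Fgf8, a fibroblast growth factor that the oocyte also sends to its cumulus cells, had 1352, 177 and 647 against 34, 66 and 33 reads (10.1-fold lower, adjusted p = 0.045), and this call was lost without primary replicate 1 or 3 or any single MII library. Bmp6 had 1466, 2449 and 2511 against 698, 704 and 723 reads and was not called (adjusted p = 0.20).

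The subcortical maternal complex, a protein assembly under the egg membrane on which the early embryo depends, was higher in 7 of 8 members and lower in none, with a median log2 fold change of 3.96. Its genes together took 0.0084% to 0.00945% of primary and 2.45% to 3.59% of MII reads, most of them from Zbed3. Nlrp5 (MATER) had 626, 541 and 479 reads against 1278, 6331 and 4038, and Padi6, a peptidylarginine deiminase of the egg lattices, had 618, 715 and 544 against 1627, 5205 and 2358. Tle6 had 184, 139 and 172 against 1715, 2075 and 1727. Khdc3 was the member without a call, with 52, 22 and 54 against 491, 37 and 186 reads (adjusted p = 0.0855). In MII replicate 1, Nlrp5 and Padi6 were the lowest of the 3 while Khdc3 was the highest. With MII replicate 2 left out the count fell to 2 of 8 and Nlrp5 lay at adjusted p = 0.0559.

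The oocyte NLR family, NACHT and leucine-rich repeat genes expressed in germ cells, was called higher in all 12 tested members of 13, with a median log2 fold change of 7.93. Nlrp4f had 75, 26 and 50 reads against 10301, 21866 and 12672 (461-fold, adjusted p = 0.000695), and Nlrp4a had 29, 6 and 19 against 4063, 9057 and 7065. Nlrp14 differed least, with 445, 307 and 321 against 870, 3162 and 2369 reads (8.95-fold). Every tested member ranked higher in all MII libraries, and MII replicate 2 had the most reads of each of these 3 genes. The Nlrp4 and Nlrp9 genes are close copies, and their reads could have been split between them. Leaving out MII replicate 2 left 6 calls.

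Transcription factors of early folliculogenesis were called higher in 3 of 13 (23.1%) and lower in 1 (7.69%), near or below the shares of all genes. Among protein-coding genes those shares were 18.2% and 17%. Nobox, an oocyte homeobox factor, had 52, 31 and 63 reads against 601, 1896 and 1210 (38.3-fold, adjusted p = 0.0095), Sall4 had 797, 200 and 1449 against 6664, 4721 and 6386, and Gtf2a1l had 1, 0 and 8 against 337, 396 and 362. Foxo3, which holds primordial follicles dormant, was the gene called lower (19846, 18799 and 18482 against 1411, 2143 and 2897 reads, 5.82-fold, adjusted p = 0.0084). Figla had 15, 1 and 5 against 2, 10 and 5 reads, Lhx8 had 1473, 752 and 861 against 232, 423 and 254, and neither was called. None of the 3 higher calls remained without MII replicate 2, Nobox at adjusted p = 0.0503, while that of Foxo3 did.

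Genes that store maternal mRNA were called higher in 1 and lower in 5 of 17 members. Ybx2 (MSY2), the germ cell Y-box protein that coats stored mRNA, had 9950, 11092 and 10410 reads in primary and 66, 75 and 69 in MII libraries (99.2-fold lower, log2 -6.63 ± 0.50, adjusted p = 0.00078), which moved it from percentile 98.86 to 99.05 down to 64.5 to 66.5. Ddx6, an RNA helicase of storage granules, had 38877, 32756 and 24666 against 65, 101 and 88 (250-fold lower). Cpeb1, which binds the CPE, had 12251, 7121 and 7589 against 1270, 2066 and 1533 (3.60-fold lower, adjusted p = 0.014). Lsm14b and Elavl2 were also lower. Zar1, of the oocyte storage compartment, was the member called higher (960, 659 and 826 against 10669, 1378 and 3332 reads, 10.3-fold, adjusted p = 0.023), and its call was lost without primary replicate 1, primary replicate 3 or MII replicate 1 (adjusted p 0.0601 to 0.0805). Ddx4 (3042, 3716 and 1073 against 2769, 3906 and 2661) and Dazl (8204, 4 and 3105 against 6897, 6615 and 6038) were not called, and Dazl was nearly absent from primary replicate 2. With 1 MII library left out, 2 or 3 members were lower, and without primary replicate 2, 2 were higher and 6 lower.

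The machinery that shortens poly(A) tails and removes mRNA was not uniform. Of 30 genes 4 were higher and 13 lower, with a median log2 fold change of -1.60. Btg4, the adaptor that brings the CCR4-NOT deadenylase to maternal mRNA, had 37, 2 and 37 reads against 60026, 61935 and 60222 (log2 11.94 ± 1.18, adjusted p = 0.0019). The catalytic subunit Cnot7 had 5284, 4503 and 3607 against 14843, 15231 and 13125 (4.93-fold higher, although Zdhhc2 overlaps it on the opposite strand and counting by strand is not stated), and the decapping cofactor Dcp1a was 8.67-fold higher. The scaffold subunit Cnot1 had 63048, 43933 and 54804 against 105, 233 and 97 (248-fold lower, adjusted p = 0.00065), so that subunits of a single complex differed in opposite directions. The other catalytic subunit gene on the list of named genes, Cnot6l, had 44049, 4581 and 28909 against 2551, 2600 and 3362, and its call (adjusted p = 0.033) was lost when any single library other than primary replicate 2 was left out (0.0731 to 0.099). Poly(A) binding proteins differed likewise: Pabpc1 had 88492, 118142 and 74361 against 248, 114 and 43, whereas Pabpn1l, the form of oocytes and early embryos, had 11, 19 and 23 against 3406, 2647 and 6195 (350-fold higher). Tut4, which adds uridine to mRNA with short tails, had 11549, 5009 and 9188 against 0, 5 and 10 reads. The counts were 3 higher and 8 lower without MII replicate 2.

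Kinases, cyclins and inhibitors of meiotic maturation were called higher in 8 of 28 (28.6%) and lower in 2 (7.14%). The higher share lay near the 24.4% of all genes and above the 18.2% of protein-coding genes. The lower share lay below both (14.0% and 17%). In ranks, 16 stood higher (57.1%, against 32.7% of all genes) and 5 lower (17.9%, against 23.6%). Fbxo43 (EMI2), which holds the egg at metaphase II by blocking the anaphase-promoting complex, had 5, 0 and 3 reads against 4586, 4561 and 3902 (log2 11.30 ± 1.20, adjusted p = 0.0023). Mos, the kinase that drives the same arrest, had 339, 44 and 560 against 6037, 2323 and 5680 (25.0-fold, adjusted p = 0.014). Cdc20, the activator of that complex, had 587, 471 and 588 against 4007, 7154 and 5517 (15.3-fold, adjusted p = 0.0028) and moved from percentile 83.2 to 84.1 up to 98.9 to 99.4. Cyclin B1 (Ccnb1) had 414, 0 and 208 against 13619, 17020 and 14611 reads, and its call (adjusted p = 0.026) was lost when any single library other than primary replicate 2 was left out (0.0511 to 0.0729). Its kinase partner Cdk1 had 6, 1075 and 272 against 701, 410 and 337 and was not called. The inhibitory kinases Wee2 and Wee1 were set side by side after their values were seen. Wee2, the oocyte form, had 36, 10 and 230 against 8849, 10260 and 7567 reads (152-fold higher, adjusted p = 0.011), and Wee1, the form of somatic cells, had 368, 633 and 796 against 3, 11 and 20 (35.2-fold lower, adjusted p = 0.018). Leaving out an MII library left 5 or 6 genes higher and none lower, and leaving out primary replicate 1 left 4 lower.

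Spindle, checkpoint and cohesion genes were higher in 11 and lower in 1 of 31, with a median log2 fold change of 2.35. Pttg1 (securin), which restrains the enzyme that cuts cohesin, had 33, 30 and 50 reads against 12435, 21552 and 27445 (827-fold, adjusted p = 0.00065). Sgo2a, the shugoshin that protects centromeric cohesin in meiosis, had 7, 3 and 12 against 591, 1415 and 1178 (219-fold). The Aurora kinase gene Aurka had 39, 1 and 22 against 1870, 2356 and 1849 (162-fold), and the checkpoint kinase Bub1b had 414, 6 and 812 against 11034, 13809 and 11296 (47.6-fold, adjusted p = 0.024). Aurkc, the meiotic Aurora kinase, had 156, 0 and 251 against 1998, 2181 and 1928, separated without overlap and was not called (adjusted p = 0.074), but was called without primary replicate 2 (0.0032). Kif4, a chromosome-bound kinesin, was the gene called lower (29637, 46705 and 4892 against 479, 1319 and 1056, 20.1-fold). The 11 higher calls became 7, 3 and 6 without MII replicate 1, 2 or 3, and the lower call was absent without MII replicate 1 or 2. Leaving out primary replicate 3 gave 2 lower. Bub1b lost its call without primary replicate 1 or any single MII library (0.0548 to 0.0692).

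Genes that act in early meiotic prophase, when chromosomes pair and recombine before the oocyte arrests, formed the next list. Of 19 tested, 8 were higher (42.1%, against 24.4% of all genes) and none lower. Syce2, of the synaptonemal complex, had 28, 3 and 8 reads against 3654, 4719 and 4121 (523-fold, adjusted p = 0.0026), and Sycp3, its axial element, had 5, 0 and 22 against 501, 744 and 1145. Mei4 was at 0 in the primary libraries and had 135, 178 and 402 reads in MII (at least 122-fold higher, against a floor of 3 reads per library). Rec8, the meiotic cohesin subunit, counted above in the cohesion list and not in this list, had 0, 31 and 9 reads against 0 in all MII libraries. Leaving out MII replicate 2 or 3 left 1 and 5 calls, leaving out primary replicate 2 gave 11 higher and 1 lower, and 1 was lower without primary replicate 1. Sycp3 lost its call without primary replicate 1 or any single MII library (0.0527 to 0.0696). In the piRNA pathway, which silences transposons, 4 of 15 were higher (Piwil1, Pld6, Tdrd6 and Asz1) and 1 lower (Gtsf1). The higher share, 26.7%, was near that of all genes and above the 18.2% of protein-coding genes. Piwil1 had 5, 0 and 2 against 1137, 1097 and 912 reads. Without primary replicate 1 or 3 or any single MII library Gtsf1 was not called, 1 gene was higher without MII replicate 2, and 3 were lower without primary replicate 2.

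In DNA methylation and maternal reprogramming, 7 of 33 genes were higher (21.2%, near the share of all genes) and 14 lower (42.4%). Dppa3 (STELLA), which protects the maternal genome from demethylation, had 41, 9 and 32 reads against 20761, 32234 and 32584 (log2 10.70 ± 0.71, adjusted p = 0.000695). Zfp57, which maintains imprints, had 63, 35 and 71 against 4050, 8490 and 3659 (145-fold), and Dnmt3l, the cofactor of de novo methylation, had 5, 0 and 0 against 744, 648 and 1016 and lies opposite Aire. Chromatin enzymes made up the lower members named here. They were Smarca4, Ehmt2, Setd2 and Kmt2d, and Ehmt2, a histone H3 lysine 9 methyltransferase, had 1770, 4387 and 2606 against 21, 34 and 17 reads (85.5-fold lower). A pair of paralogs was contrasted after its values were seen: Uhrf1 had 206, 355 and 282 against 2059, 5347 and 2921 (17.5-fold higher) and Uhrf2 had 2525, 1128 and 1680 against 3, 22 and 14 (89.4-fold lower). Tet3, the dioxygenase of the zygote, had 32985, 14177 and 17847 against 14723, 13068 and 13341 and ranked above 92 in every library (adjusted p = 0.97). With MII replicate 2 left out 3 were higher and 5 lower, and Dnmt3l lay at adjusted p = 0.0503.

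Of all lists, the replication-dependent histone genes had the lowest median log2 fold change (-12.4). Their mRNAs end in a stem-loop and carry no poly(A) tail in dividing cells, while the Smart-seq II reaction starts from poly(A). Whether this has a part in the lower counts was not tested. Of 62 tested, 49 were called lower and 1 higher, and 39 members were at 0 in all MII libraries. They took 1.06% to 2.36% of primary and 0.00367% to 0.00737% of MII reads. Hist1h2bh had 12994, 13543 and 26734 reads against 0, at least 3856-fold lower, and Hist1h2bn had 12364, 29626 and 24358 against 0, at least 5031-fold lower. Hist2h3c1 was the gene called higher (0, 0 and 1 against 90, 75 and 84) and overlaps Gm20634 on the same strand. Leaving out MII replicate 2 gave 27 lower and none higher, and 2 were higher without primary replicate 3. The members are near-identical, so reads could have been split among them. The polyadenylated replacement histones H3f3a and H3f3b, compared after their values were seen, moved oppositely: H3f3a had 17712, 17647 and 14985 against 357, 500 and 1691 (12.8-fold lower, adjusted p = 0.012) and H3f3b 11710, 12395 and 21695 against 30773, 32923 and 37922 (3.40-fold higher, adjusted p = 0.012).

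Cytosolic ribosomal protein genes were lower in 74 of 82 and higher in 1, and 77 stood lower in rank. The list took 3.93% to 5.58% of primary and 0.0715% to 0.11% of MII reads, and its median log2 fold change was -7.55. Rpsa, a small-subunit protein gene, had 46500, 25523 and 66077 reads against 1, 3 and 4, Rpl21 had 40134, 17373 and 19895 against 5, 9 and 9, and Rpl32 had 55838, 87219 and 69566 against 56, 75 and 192. Rps27l, a paralog of Rps27, was the gene called higher, with 77, 9 and 158 against 1739, 2634 and 3212 (log2 fold change 5.64, adjusted p = 0.012). Rps25 (1093, 1843 and 1427 against 259, 267 and 295), Rps2 and Rpl22 were among the 7 without a call. Ribosomal protein genes have many processed pseudogenes that can take part of their reads. In the fit without MII replicate 2, 58 were lower and none higher, and without primary replicate 1, 2 were higher.

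Mitochondrially encoded mRNAs lay in the other direction, with 13 of 13 called higher and a median log2 fold change of 8.28. They took 0.00248% to 0.0146% of primary reads and 1.58% to 7.69% of MII reads, and mt-Co2, mt-Co3 and mt-Nd3 had no read in any primary library. Capture with probes was used for the primary libraries alone, and its part in these values was not tested. mt-Cytb, the cytochrome b of complex III, had 300, 110 and 628 reads against 367250, 80393 and 94226 (867-fold, adjusted p = 0.0034). MII replicate 1 was the highest of the 3 in mt-Cytb as in the list as a whole. mt-Rnr2, a ribosomal RNA of the same genome that encodes no protein, had 66924, 50121 and 93777 against 25649, 8973 and 10678 and was not called (adjusted p = 0.053). Of the 13, 8 were called without MII replicate 2 and 12 without MII replicate 1.

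Nuclear genes of the mitochondrion behaved less evenly. Of 78 mitochondrial ribosomal protein genes 16 were higher (20.5%) and 3 lower (3.85%). The higher share lay below the 24.4% of all genes and above the 18.2% of protein-coding genes. The lower share lay below both (14.0% and 17%). The higher ones included Mrpl45 (23, 9 and 4 against 799, 585 and 482 reads) and Mrpl40 (41, 17 and 21 against 434, 634 and 648), and Mrpl43, which lies opposite Twnk, Mrps25 and Mrpl52 were the lower ones. Mrps25 had 4982, 4404 and 3250 against 166, 246 and 269. Of 78 tested subunits of oxidative phosphorylation 8 were higher (10.3%) and 18 lower (23.1%). Atp5g3, a ring subunit of ATP synthase, had 7495, 5351 and 17589 against 2, 19 and 16 reads (542-fold lower), and the complex I subunit Ndufv2 was 39.2-fold lower. The complex IV subunit Cox8a had 13, 39 and 28 against 362, 1215 and 1056 (46.2-fold higher), and Sdhc of complex II was 39.5-fold higher. These counts depended on single libraries. Without MII replicate 1, 2 or 3, the higher ribosomal calls were 5, 0 and 2 (with 1 lower call without MII replicate 2), and the oxidative phosphorylation calls were 3, 0 and 0 higher and 6, 3 and 5 lower.

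**Figure D3:**
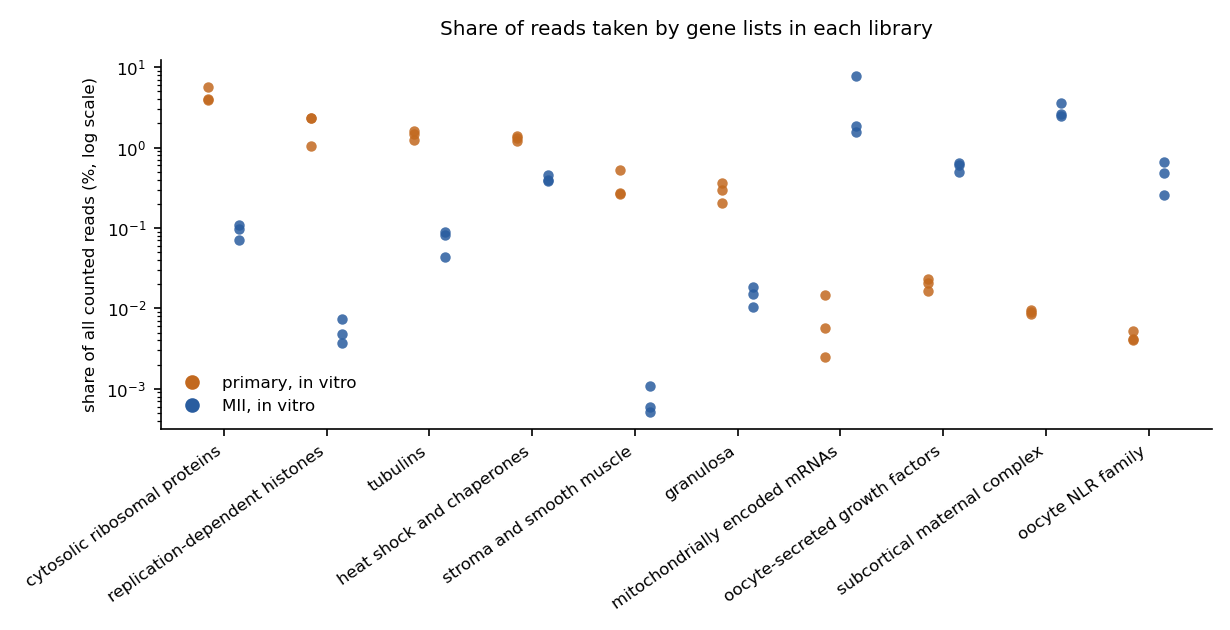
Share of all counted reads (%, log scale, y axis) taken by 10 gene lists (x axis) in each of the 3 primary (orange) and 3 MII (blue) libraries, 1 point a library. Ribosomal protein genes take 3.93% to 5.58% in primary and 0.0715% to 0.11% in MII libraries, and mitochondrially encoded mRNAs 0.00248% to 0.0146% and 1.58% to 7.69%.

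Tubulins, the subunits of microtubules, were lower in 9 of 14 and higher in none. Tuba1b had 20349, 43996 and 65974 reads against 10, 8 and 4 (3921-fold lower, adjusted p = 0.00078), and Tubb5 had 35039, 57874 and 83231 against 28, 102 and 85 (561-fold lower). Tuba1a and Tuba1b are close copies, and both overlap Gm49450 on the same strand. Tuba3a was not called (2314, 0 and 1 against 276, 509 and 507). Without primary replicate 1, primary replicate 2 or MII replicate 1, 1 tubulin was called higher.

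Proteasome subunits were lower in 15 of 38 and higher in 1, chaperones lower in 17 of 24 and higher in none. Psma6, of the core particle, had 8581, 15423 and 11797 reads against 79, 175 and 227 (50.9-fold lower), and Psmd9, an assembly chaperone that lies opposite Gm26745, had 103, 10 and 148 against 1000, 2056 and 1804 (29.8-fold higher). Hspa8, the constitutive HSP70, had 63680, 37692 and 50795 against 220, 543 and 483 (79.7-fold lower, adjusted p = 0.00078). Hspa5, the HSP70 of the endoplasmic reticulum, was 57.5-fold lower and Hsp90ab1 11.9-fold lower. Hsp90aa1 was not called, with 18406, 11470 and 19312 against 21338, 16458 and 14412 reads (adjusted p = 0.11), and ranked above 97 in every library. Proteasome calls fell to 4 lower without MII replicate 2 and 9 lower without MII replicate 3, with none higher in either, and chaperone calls to 9 lower without either of these libraries. Leaving out primary replicate 2 gave 2 proteasome genes higher.

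In glycolysis and pyruvate use 10 of 26 genes were lower and 1 was higher. Gapdh had 10455, 9255 and 8594 reads against 317, 275 and 321 (20.1-fold lower, adjusted p = 0.0022), and Pkm, the last enzyme of the path, had 16020, 6981 and 17595 against 286, 597 and 444. Ldhb, the lactate dehydrogenase subunit typical of oocytes, was the gene called higher (697, 378 and 734 against 19904, 28305 and 40062, 76.6-fold, adjusted p = 0.00083). Its paralog Ldha, set beside it after the values were seen, had 197, 69 and 572 against 14, 2 and 93 and was not called (adjusted p = 0.28). The fit without MII replicate 2 gave 4 lower and 1 higher, and without primary replicate 2, 3 were higher.

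Antioxidant and redox enzymes gave few calls, 4 higher and 2 lower of 33 (12.1% and 6.06%, below the shares of all genes). Prdx2, a peroxiredoxin that lies opposite Junb, had 308, 359 and 246 reads against 1377, 2564 and 2254 (10.0-fold, adjusted p = 0.012), Glrx had 40, 0 and 91 against 2108, 3930 and 5367, and Nqo1 was at 0 in the primary libraries and had 168, 260 and 241 in MII (at least 112-fold higher). Nox4 was higher with 5 to 22 reads in MII. Gpx4, which reduces lipid peroxides, had 1264, 123 and 841 against 11, 13 and 12 (37.1-fold lower), and catalase (Cat) 1671, 1813 and 667 against 24, 28 and 0 (54.4-fold lower). None of the 33 was called without MII replicate 2, without MII replicate 1 none was lower, without MII replicate 3 1 was higher and 1 lower, and without primary replicate 2 there were 6 higher and 7 lower.

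The PI3K, Foxo3 and mTOR pathway governs the awakening of primordial follicles. Of its list, 14 of 27 genes were lower and none higher, with a median log2 fold change of -2.54. Foxo3, which holds these follicles dormant, was among the lower genes, so the count gives no direction of pathway activity. Igf1r, a receptor upstream, had 10121, 10468 and 23551 reads against 60, 29 and 48 (204-fold lower). Mtor, the kinase downstream, had 7224, 5867 and 5281 against 132, 419 and 211 (16.3-fold lower). Kit, the receptor of the oocyte for KIT ligand, had 7123, 88 and 1191 against 358, 1399 and 986 and was not called. Kitl, that ligand, made by granulosa cells, had 400, 3266 and 2295 against 81, 52 and 67, and its call (adjusted p = 0.022) was lost when any single MII library was left out (0.0667 to 0.0846). The 14 pathway calls were 7, 5 and 5 without MII replicate 1, 2 or 3, and 1 gene was called higher without primary replicate 1.

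Among 30 TGF-β and BMP genes 11 were lower and 1 higher. The receptor Bmpr2, on which GDF9 and BMP15 act in granulosa cells, had 17269, 24871 and 15532 reads against 629, 523 and 479 (23.7-fold lower), and the shared mediator Smad4 had 18632, 36880 and 15235 against 279, 456 and 448. Amhr2 and Smad7 were at 0 in MII oocytes. Tgfb2, a ligand, was the gene called higher (64, 0 and 217 against 10593, 10246 and 8331, adjusted p = 0.021). In the Wnt list 8 of 36 were lower and 1 higher. Axin2, a feedback inhibitor, had 4035, 12598 and 3912 against 193, 239 and 168 (24.4-fold lower), and the ligand Wnt7a was at 0 in primary and had 7, 22 and 41 reads in MII oocytes. Single libraries moved both counts: without MII replicate 1, 2 or 3 the lower calls were 5, 4 and 6 for TGF-β and 3, 2 and 3 for Wnt, and without primary replicate 2 they were 18 and 17, with 2 Wnt genes higher. Tgfb2 was not called when any single MII library was left out, Wnt7a not without MII replicate 2 or 3, and 2 TGF-β genes were higher without primary replicate 3.

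Genes of cyclic AMP and meiotic arrest were lower in 4 and higher in 1 of 12. Npr2, the guanylyl cyclase of granulosa cells, had 16340, 7332 and 23927 reads against 0 in all MII libraries (at least 3335-fold lower), and Gnas was 91.8-fold lower. Pde3a, the phosphodiesterase that ends the arrest, was the gene called higher (1295, 248 and 283 against 1915, 2221 and 1846, 5.40-fold, adjusted p = 0.045), and this was lost without primary replicate 3 or any single MII library (0.082 to 0.122). Gpr3, the receptor that sustains cyclic AMP, had 949, 7 and 234 against 1425, 1229 and 775 and was not called (adjusted p = 0.20). Without MII replicate 1, 2 or 3 the lower calls were 3, 2 and 2, and without primary replicate 3, 2 were higher.

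In sperm binding and egg activation 4 of 17 were higher (23.5%) and 7 lower (41.2%). The higher share was near that of all genes and above the 18.2% of protein-coding genes. Itpr1, the calcium channel of egg activation, had 13860, 22848 and 9791 reads against 273, 898 and 452 (20.4-fold lower, adjusted p = 0.0073), Trpm7 was 75.5-fold and the tetraspanin Cd81 174-fold lower. Astl (ovastacin), the protease that cleaves ZP2 after fertilisation, had 724, 30 and 309 against 1958, 1595 and 2296 (9.42-fold, adjusted p = 0.0498), a call lost without primary replicate 3 or any single MII library (0.0965 to 0.128). Cd9, the tetraspanin of sperm fusion, had 4944, 9 and 2576 against 81, 164 and 262 and was called, lower, only without primary replicate 2 (0.00774). Izumo1r (JUNO), the receptor for sperm, had 95, 17 and 48 against 147, 209 and 184 and was not called. Leaving out an MII library left 1 or 2 higher and 5 or 6 lower, and leaving out primary replicate 3 left 2 higher. Of the immediate early genes Klf4 and Junb were higher and Myc lower of 16 tested, and none of the 16 was called when any single MII library was left out. Egr1 (2815, 509 and 1208 against 917, 982 and 690) and Fos (0 against 20, 14 and 0) were not called. Without primary replicate 3, 5 immediate early genes were higher and without primary replicate 2, 2 were lower.

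**Figure D4:**
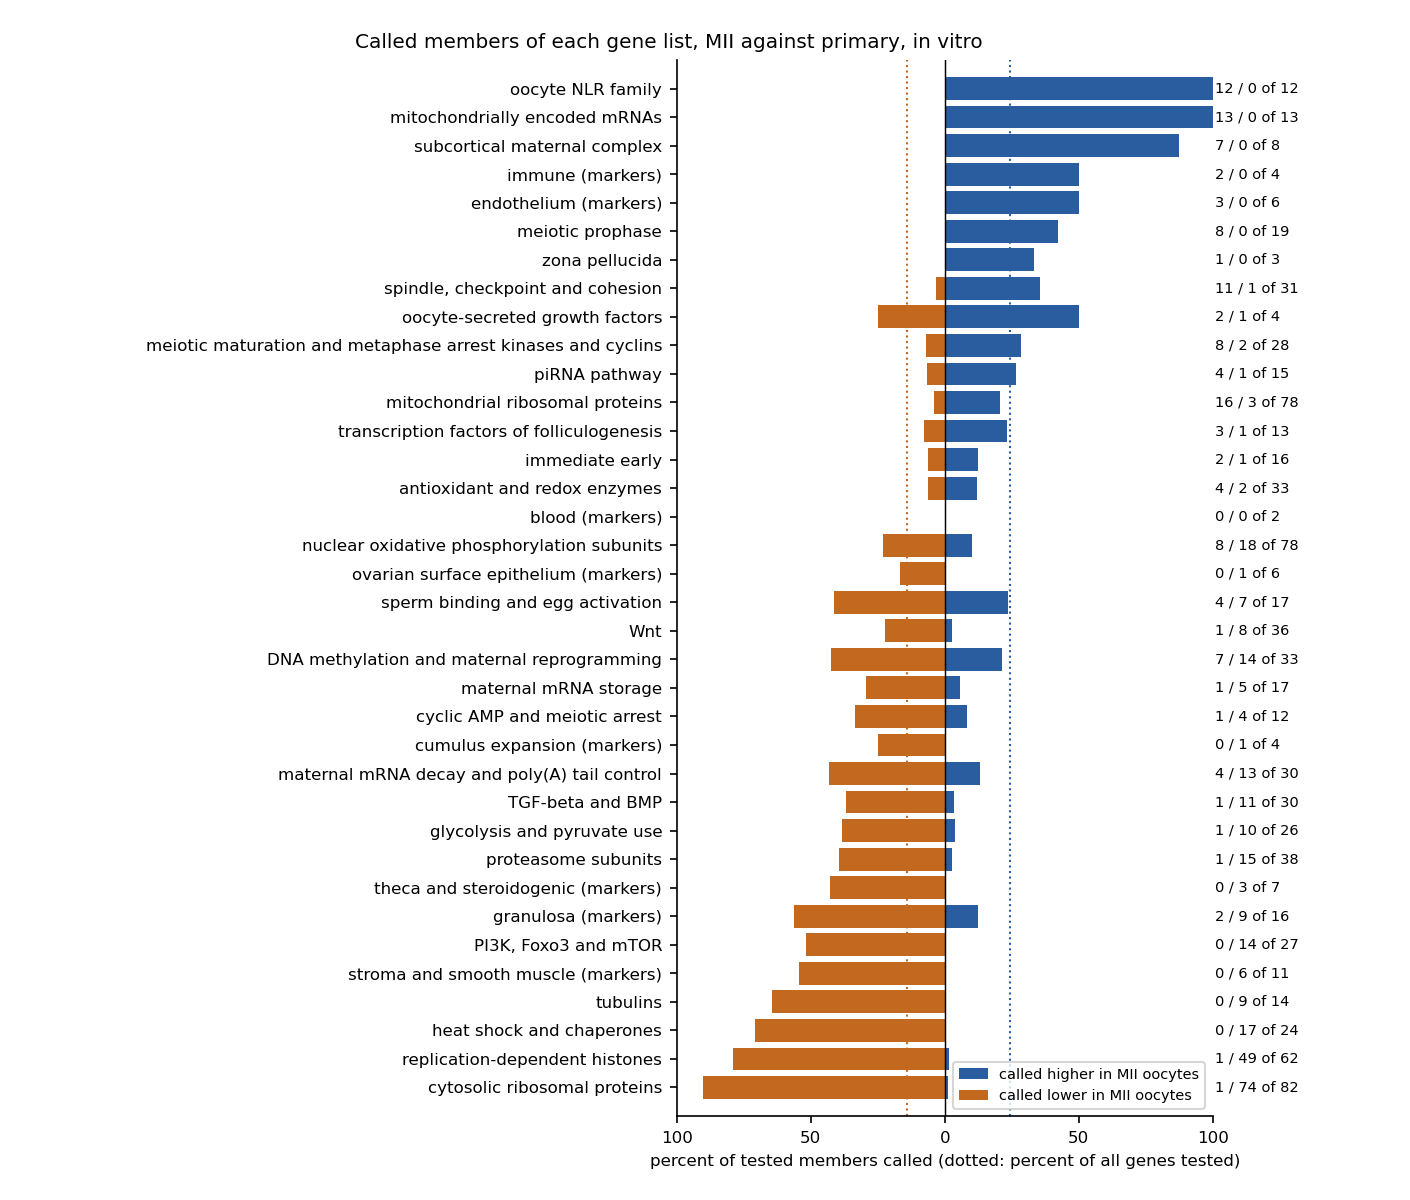
Percent of the tested members of each gene or marker list (y axis) called higher (blue, to the right) or lower (orange, to the left) in MII oocytes, with the counts as higher / lower of tested at the right edge, and the shares of all genes, 24.4% and 14.0%, as dotted lines. The oocyte NLR family and the mitochondrially encoded mRNAs lie at the higher end, with 12 of 12 and 13 of 13, and the ribosomal protein genes at the other, with 74 of 82 lower.

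Some genes ranked high in both groups. At or above percentile 95 in all 6 libraries were 61 genes, 53 of them protein-coding, of which 5 were called higher, 22 lower and 26 neither. Of all 14204 protein-coding genes tested, 18.2% were called higher and 17% lower, so lower calls were more frequent in this set. The 61 genes were 14.5% of the 422 genes at that level in the 3 primary libraries and 8.83% of the 691 in the 3 MII libraries. Cks2, a partner of cyclin-dependent kinases, had 7427, 2563 and 3130 reads against 4519, 6153 and 5837 and ranked from 98.4 to 99.8 in every library (adjusted p = 0.11). Map2k1 (MEK1), the kinase downstream of MOS, had 7498, 9506 and 8474 against 7327, 9243 and 6836 (adjusted p = 0.32). The 5 called higher were H3f3b, D6Ertd527e, Rbbp7, Surf4 and Arf1.

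Oocytes that were not cultured gave a pair for comparison, made with the same split of preparation. Primary follicle oocytes came from ovaries of 14-day-old mice and MII oocytes from superovulated adult mice, 3 samples each. Age of the animals therefore also differed within this pair. Of the genes called in culture, 95.6% of the higher and 94.4% of the lower ones had the same sign of change in the in vivo pair, where 56.4% of all tested genes lay above 0 and 37.8% below it. The pairs share no sample, and the log2 fold changes of 17991 genes correlated at r = 0.774, across genes and with preparation common to both. Tcl1 differed by a log2 fold change of 11.61 in vivo and Actb by -9.79, close to the values in culture.

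The difference between the cultured and the in vivo change was tested as an interaction over the 12 libraries. No gene of 19764 was called (0%) by edgeR, with 1822 at an unadjusted p under 0.05, while DESeq2 called 661, 220 of them more positive and 441 more negative in culture. Without primary in vivo replicate 2, edgeR called 397 (10 and 387). The 10 genes with the smallest p by edgeR (Max, Mpp5, Pomgnt1, Grm2, Taf8, Lrrc40, Bcl10, H2afj, Nos1ap and Prmt2) were alike in 1 respect: each had 0 to 8 reads in every primary in vivo library. Max, the partner of MYC, had 5471, 28504 and 12121 reads in cultured and 1, 8 and 2 in in vivo primary oocytes, beside 80, 113 and 198 and 83, 267 and 131 in the MII groups (adjusted p = 0.091). Pomgnt1, a glycosyltransferase, had 7259, 2614 and 3745 against 0 in primary, and 103, 157 and 133 against 77, 276 and 236 in MII oocytes (adjusted p = 0.091). For Ddx4, the germ cell RNA helicase, the MII groups differed more, with 3042, 3716 and 1073 in cultured and 9497, 2954 and 15606 in in vivo primary oocytes, and 2769, 3906 and 2661 against 373, 120 and 244 in MII oocytes (adjusted p = 0.31).

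**Figure D5:**
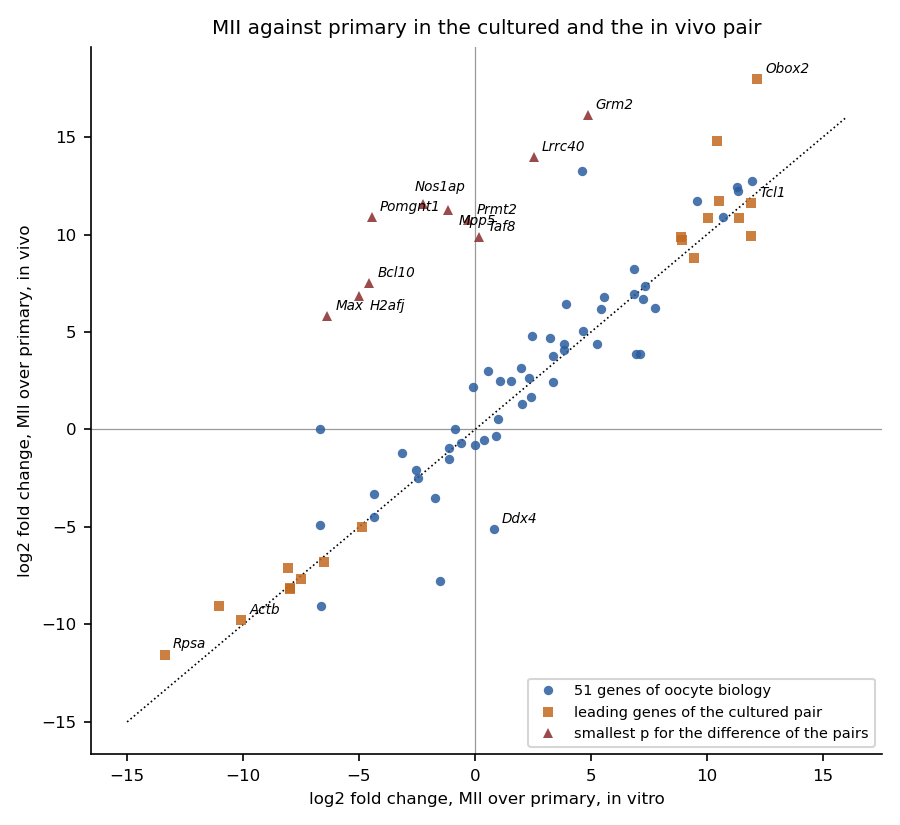
Log2 fold change of MII over primary oocytes in vitro (x axis) and in vivo (y axis), 1 point a gene, for 51 genes of oocyte biology (blue), 19 leading genes of the cultured pair (orange) and the 10 genes with the smallest p for the difference of the pairs (triangles), with a dotted line where both are equal. Most points lie near the line, and all 10 triangles lie above it.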

How the data were processed

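Polyadenylated or captured RNA of 18 samples was sequenced, of which 6 were compared here and 6 more served the in vivo comparison. Per the labels and the study's methods, the authors trimmed reads with Trim Galore 0.4.1, aligned them to mm10 with TopHat2 and deposited featureCounts read counts per gene for 53715 genes. A TPM table that the authors made for fewer genes, scaled by length and depth, served only as an alternative. The strand setting and the treatment of reads with several positions are not given in the sources used here. Gene symbols, biotypes and exon lengths were matched by identifier to GENCODE vM21 for 53620 genes.

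Genes with at least 10 reads over the 6 libraries were tested with edgeR 4.0.16 (R 4.3.3; TMM, robust quasi-likelihood fit), with Benjamini-Hochberg adjustment over all genes tested. DESeq2 1.42.0 and limma 3.58.1 served as alternatives. Reads per library ranged from 8898672 to 23930436, at which 3 reads are 0.125 to 0.337 CPM. These limits cover counting error only. A fold against a group at 0 was computed against a floor of 3 reads per library and is a lower bound. The smallest p of an exact permutation test of 3 against 3 samples is 0.1, so p-values come from the model over all genes. The code was also run on simulated counts. Their spread was set smaller than that of these libraries (biological coefficient of variation 1.18), so that run cannot speak for the calls here.

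Samples were grouped by their labels. Genes were named by rule: 52 genes of oocyte biology, the 10 protein-coding genes of smallest p in each direction with ranks that did not overlap, up to 4 called members of each list in each direction with those against its main direction or at 0 in a group, the 10 genes of highest median rank in each group, and the 10 of smallest p for the interaction. Genes named outside it, such as Ldha, H3f3a, H3f3b and genes ranked high in both groups, were chosen after their values were seen. The members and lists were chosen with earlier results of these data known. Lists were described by counts, with no set test. Alternatives covered the test, scaling, filters on low counts, a common depth, log2(TPM + 1) and log2(TPM + 0.1), each library left out and the replicate number as a block. A few named genes are not reported here and were left out of the plots, though counts include them.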

Additional observations from a re-analysis of the deposited data

How the results depend on the processing

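Counts of genes ranked without overlap stayed within 1.5 times under the alternatives run. The higher calls moved to 2589 with all 18 libraries in 1 fit, to 2846 with the replicate block and to 2346 among protein-coding genes alone. The lower calls moved to 720 with all 18 libraries and to 3798 with DESeq2 without its filters. The split of calls moved from 63.5% higher to 78.2%, 51.2% and 36.5% with all 18 libraries, protein-coding genes alone and MII replicate 2 left out. Leaving out 1 library in turn gave 464 to 4797 higher and 807 to 3457 lower calls, and the interaction gave 0 to 397 and, with DESeq2, 661. The cause was not tested. Same-numbered samples did not deviate together (r -0.00108, 0.0164 and 0.00412), so the numbers were not taken as pairs, and with the block the interaction still called 0 genes and 1985 genes were lower.

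Genes that changed sign were without a call. Egr1 gave 0.28 with DESeq2 (with and without filters), its size factors and a common depth, 0.5 with library size alone, 0.01 with at least 1 count, 0.11 with the block, 0.52 and 0.54 on log2(TPM + 1) and log2(TPM + 0.1), and from -0.44 to 0.57 with 1 library left out, the sign changing without primary replicate 1 and MII replicate 3 (0.02). Zp1 gave 0.05 with limma-voom, 0.19 with library size alone, 0.07 on both TPM scales and from -0.96 to 0.09 (without primary replicate 2) with 1 library left out. Tet3 gave -0.16 with limma-voom, -0.27 with TMMwsp, and -0.11 to 0.31 with 1 library left out, below 0 without primary replicate 2, primary replicate 3 (-0.1) and MII replicate 1 (-0.08). Kit gave 0.43 with the block, 0.61 and 0.81 on the TPM scales and -1.43 to 1.1 (without primary replicate 1) with 1 library left out, Pabpc1l 0.14 on log2(TPM + 0.1), Cdk1 -0.03 (without primary replicate 1) to 2.51, and Figla -0.16 (without MII replicate 2) to 1.4, with -0.09 without primary replicate 2. Among the other single-gene results, 1566 kept direction and side of the threshold, 84 lost the call and 36 gained it.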
